A study of Mus musculus with 4 samples.

Results

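The hypoxia response genes examined here comprised 10 genes, namely 2 oxygen-regulated HIF alpha subunits (Hif1a and Epas1) and 8 classical HIF target genes (Vegfa, Adm, Bnip3, Egln1, Egln3, Ddit4, Pdk1 and Slc2a1). They were taken by gene name from a table of 22863 genes measured by RNA-seq in mouse eyes, and each name matched 1 gene. All 10 passed the filter on low values (an adjusted count of 10 or more in 2 or more of the samples), as did 17784 genes in all. The 4 samples were from C3H/f+/+ mice, a strain that makes melatonin and lacks the retinal degeneration mutation of other C3H mice, and were split evenly between subjective day and objective day. Objective day mice had seen light in the morning and were then kept in darkness for 1 hour, while the methods give 18 hours of darkness for subjective day mice (another passage of the study gives a longer time). Both conditions were sampled at clock hour 6, after entrainment to a light-dark cycle, and each sample pooled 4 eyes from a female and a male. No age is given for these mice in the sources used here. The tissue was what remained after the front of the eye and the lens had been cut away in the dark: retina, RPE, choroid and posterior sclera. The comparison addressed which eye transcripts differ after light exposure at the same circadian time.

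HIF is a transcription factor made of an oxygen-regulated alpha subunit and the stable partner ARNT. When oxygen is plentiful, prolyl hydroxylases (the EGLN proteins) mark the alpha subunit for the VHL ubiquitin ligase, and it is degraded. When oxygen falls, the subunit persists and raises genes for vessel growth, glucose uptake, glycolysis and mitochondrial restraint. Because the control acts on the protein, mRNA levels of the alpha subunits are not a measure of HIF activity. The retina is among the most oxygen-consuming tissues of the body, and photoreceptors are known to use more oxygen in darkness than in light.

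After light exposure, 2 of the 10 genes fell and 1 rose. Bnip3, which encodes a mitophagy receptor of the outer mitochondrial membrane, fell by 28.9%. Pdk1, which encodes a kinase that shuts off pyruvate dehydrogenase, fell by 17.5%. Vegfa, the main growth factor of blood vessels, was 19.6% higher. The other 7 missed the adjusted p threshold of 0.05 (limma's test on log2(value + 1), Benjamini-Hochberg adjustment over all genes tested). Among all genes tested 8.51% were called, 7.45% as lower and 1.06% as higher, against 3 of the 10 hypoxia genes, 2 lower and 1 higher. By estimate alone, 5 of the 10 lay lower in objective day (Bnip3, Pdk1, Hif1a, Egln3 and Egln1) and 5 higher (Adm, Vegfa, Ddit4, Slc2a1 and Epas1). In all 10 genes both objective day samples lay on the same side of both subjective day samples, a separation seen in 56.1% of all genes tested (28.2% lower and 27.9% higher). The median log2 fold change of the 10 was -0.042, beside 0.015 over all genes tested, and the median of its absolute value was 0.25, beside 0.16. With 2 samples against 2, the smallest two-sided p of an exact permutation test is 0.333 for any gene, so each call rests on the variance limma shares across genes. The samples of a condition are described as biological replicates, and no source used here gives their litters or days.

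**Figure D1:**
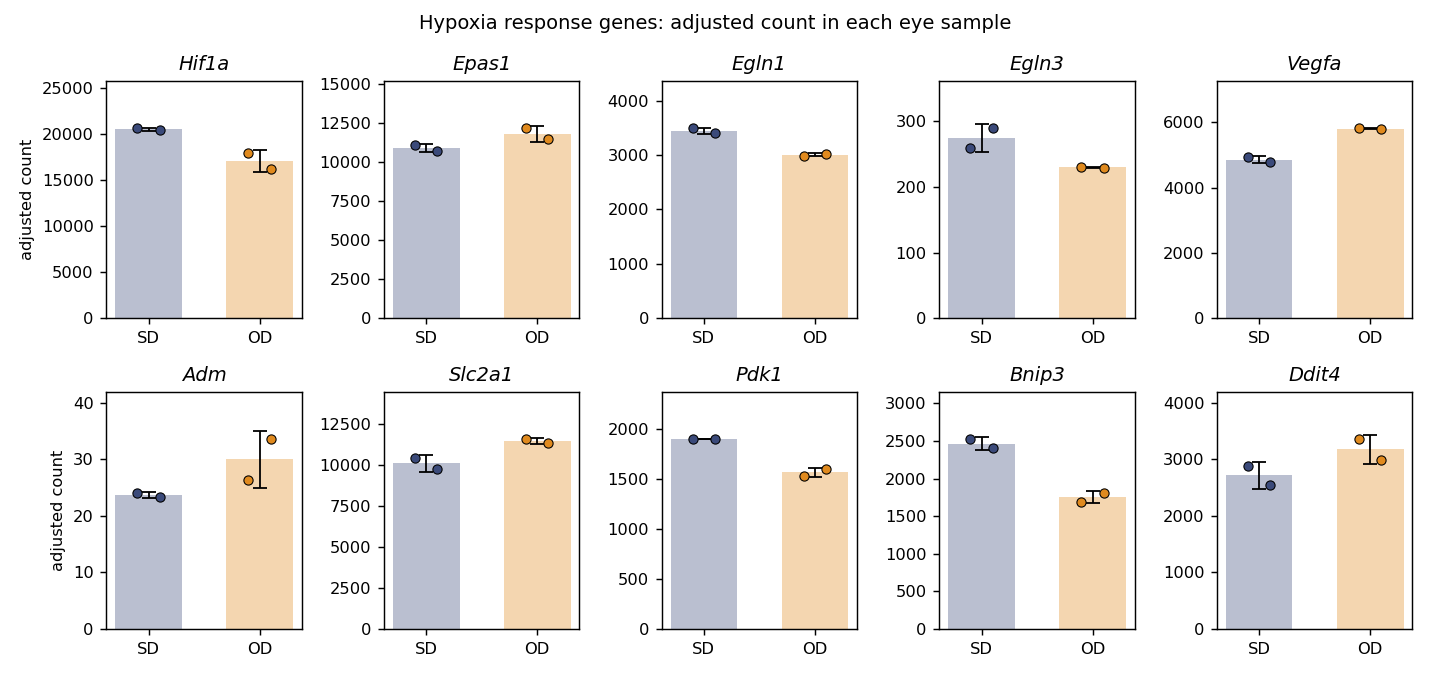
Adjusted count (vertical axis, from 0) of the 10 genes in each eye sample, with subjective day (SD) in blue and objective day (OD) in orange. Points are samples, bars are means and whiskers are standard deviations, n = 2. In each of the 10 panels the points of the conditions do not overlap. The widest separation on the log2 scale is that of Bnip3.

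Fold change across the whole table followed the GC content of the transcript (Spearman correlation 0.583 across 17536 genes, which share the same 4 libraries), so the fold changes of the 10 genes and of the pathway genes called are given with that trend left in and taken out. The 10 genes spanned GC contents from 41.3% for Hif1a to 57.9% for Ddit4, on both sides of the median of 49.8% of the genes tested. Across the 10, the Spearman correlation of log2 fold change with GC content was 0.491 and Pearson's r was 0.641, as a description over genes measured in the same libraries. With each sample's GC trend removed by local regression, limma called none of the 10, beside 1.20% of all genes (111 lower and 100 higher), and 5 of the 10 had an unadjusted p under 0.05, as did 13.5% of all genes. In 7 of the 10 the conditions still did not overlap, beside 44.1% of all genes. Such a correction also takes away any regulation that happens to follow GC content, and the part of the GC trend in the results was not tested.

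**Figure D2:**
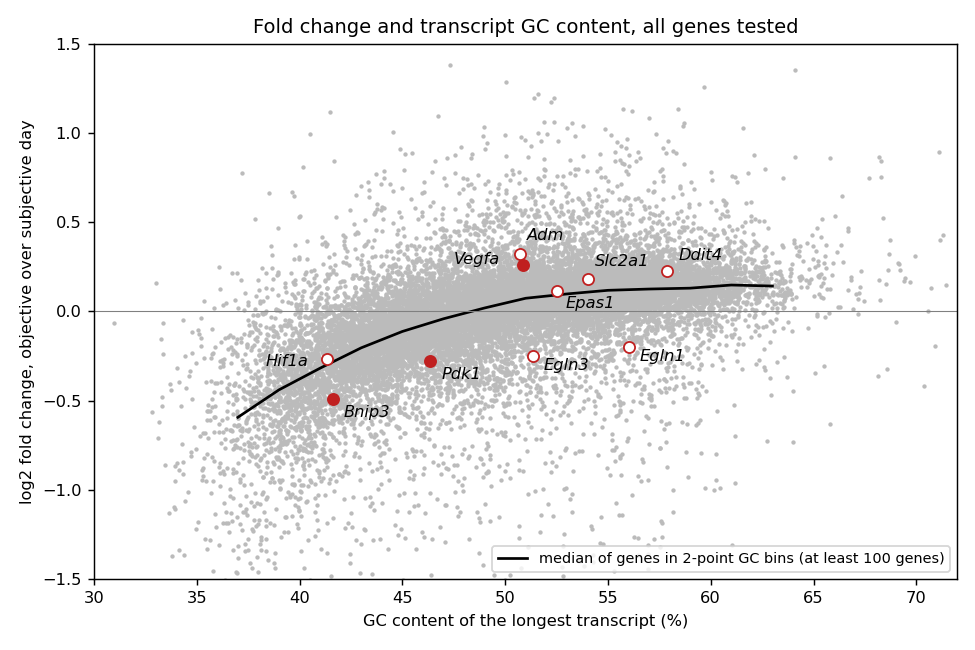
Log2 fold change of objective over subjective day (vertical axis) against GC content of the longest transcript (horizontal axis, %) for all genes tested (grey) and the 10 hypoxia genes (red, filled where the adjusted p was under 0.05). The black line is the median in bins of GC content; 123 genes lie outside the axes. Hif1a sits on the line, Bnip3 and Pdk1 below it, Vegfa and Adm above it, and Egln1 and Egln3 below it although their GC content is above the median of 49.8%.

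**Figure D3:**
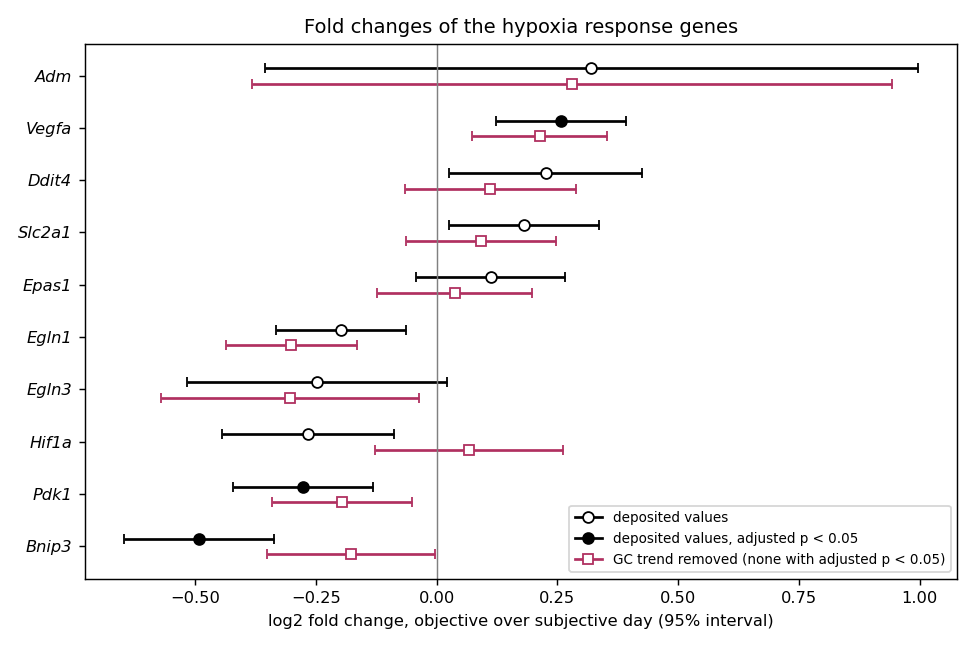
Log2 fold change of objective over subjective day with its 95% confidence interval from limma (horizontal axis) for each of the 10 genes, for the deposited values (circles, filled where the adjusted p was under 0.05) and with each sample's GC trend removed (squares). Bnip3 moved from -0.49 to -0.18, Hif1a crossed 0, and Egln1 moved away from 0.

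Upstream sequence was taken from RefSeq (GRCm38.p6) for 9 of the 10 genes and searched for the 5-base cores of the hypoxia response element, ACGTG and GCGTG, on both strands. All windows are the 250 bases before an annotated start of the gene. A core was found in 9 of the 11 windows of these genes (Pdk1 and Vegfa have 2 windows each), compared with 38.6% of all windows in the table and 52.2% of the windows of genes tested. The windows of Bnip3, Pdk1 and Vegfa are shown because these genes were called, and that of Egln1 because it had the smallest adjusted p once the GC trend was removed. They run 5′ to 3′ along the gene, with cores in capitals. The Bnip3 window lies at chr7:138909507-138909756 on the minus strand, that of Pdk1 at chr2:71872974-71873223 on the plus strand, that of Egln1 at chr8:124949255-124949504 on the minus strand and that of Vegfa at chr17:46032378-46032627 on the minus strand.
Bnip3: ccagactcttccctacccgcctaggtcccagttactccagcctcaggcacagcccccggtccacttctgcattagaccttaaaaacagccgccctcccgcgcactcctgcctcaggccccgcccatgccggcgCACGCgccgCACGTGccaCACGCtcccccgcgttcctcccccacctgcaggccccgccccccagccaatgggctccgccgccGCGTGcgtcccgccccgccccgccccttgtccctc
Pdk1: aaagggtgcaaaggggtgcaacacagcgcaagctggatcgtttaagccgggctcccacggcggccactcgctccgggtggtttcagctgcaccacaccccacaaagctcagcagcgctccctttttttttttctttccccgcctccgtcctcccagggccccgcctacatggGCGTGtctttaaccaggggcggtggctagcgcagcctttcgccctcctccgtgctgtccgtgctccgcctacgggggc
Egln1: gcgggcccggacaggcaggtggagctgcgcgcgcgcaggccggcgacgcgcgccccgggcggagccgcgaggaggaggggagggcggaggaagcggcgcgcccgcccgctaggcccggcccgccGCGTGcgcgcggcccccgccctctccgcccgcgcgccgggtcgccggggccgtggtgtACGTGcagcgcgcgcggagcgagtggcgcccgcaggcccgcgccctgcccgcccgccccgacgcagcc
Vegfa: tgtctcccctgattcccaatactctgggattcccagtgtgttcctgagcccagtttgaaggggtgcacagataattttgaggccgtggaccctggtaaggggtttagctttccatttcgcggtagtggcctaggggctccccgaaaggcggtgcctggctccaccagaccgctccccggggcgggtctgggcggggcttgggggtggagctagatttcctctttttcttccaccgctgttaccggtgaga
The Bnip3 window held 5 cores, counting both strands of a palindromic CACGTG as 2, and 2.58% of all windows and 4.19% of the windows of genes tested held 4 or more. The Egln1 window held 2, the Pdk1 window 1 and this Vegfa window 0, while another Vegfa window at an internal start held 2 and another Pdk1 window, also at an internal start, held 0. Genes that were lower and genes that were higher in objective day both carried cores: Slc2a1, Adm and Ddit4, all higher by estimate, held 2 each. A match describes the letters and is not evidence of a bound site.

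The mRNAs of Hif1a and Epas1 were abundant and their estimates had opposite signs, neither past the threshold. Another alpha subunit gene, Hif3a, named for its role after its values were seen, belongs to a pathway list read further on and stood at 263 to 316 in the 4 samples (log2 fold change 0.0082, adjusted p = 0.977). Hif1a (ENSMUSG00000021109, chromosome 12 from 73901375 to 73947530, plus strand) encodes the widely expressed alpha subunit. Its adjusted counts were 20575 and 20389 (subjective day) against 17895 and 16221 (objective day), and the lower objective day sample was replicate 2. The log2 fold change was -0.27 (95% confidence interval -0.44 to -0.087, adjusted p = 0.0783), short of the threshold. Hif1a has the lowest GC content of the 10 genes, and with the GC trend removed its log2 fold change was 0.067 (interval -0.13 to 0.26, adjusted p = 0.795), with overlapping conditions. Scaling all samples to equal totals without mitochondrially encoded transcripts, whose share of the total was 2.63% to 3.40% in objective day against 6.06% to 6.38% in subjective day, gave -0.27 with an adjusted p of 0.0321 for Hif1a. The antisense gene Gm15283 shares 330 of the 5896 exonic bases of Hif1a and was listed at 148 to 182 in the 4 samples. The protein-coding gene Gm49321, on the same strand as Hif1a, shares 148 of those bases. Epas1 (ENSMUSG00000024140, chromosome 17 from 86753700 to 86833410, plus strand) encodes HIF-2 alpha, the subunit typical of endothelium and glia. Its adjusted counts were 11113 and 10742 (subjective day) against 12163 and 11469 (objective day). The gap between the nearest samples of the conditions was 0.045 on the log2 scale, smaller than the difference of 0.085 between the 2 objective day samples. Epas1 had a log2 fold change of 0.11 (interval -0.042 to 0.27, adjusted p = 0.333), and 0.037 with the GC trend removed. The within-sample ratio of Epas1 to Hif1a counts was 0.680 and 0.707 (objective day) against 0.540 and 0.527 (subjective day). This describes a pair chosen after the values were seen. The GC contents of Epas1 (52.5%) and Hif1a (41.3%) differ, and the ratio carries the GC trend.

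Of the prolyl hydroxylase genes among the 10, neither Egln1 nor Egln3 passed the threshold. EGLN1 is the main oxygen sensor that marks HIF alpha for degradation, and its gene is itself a HIF target. Egln1 (ENSMUSG00000031987, chromosome 8 from 124908587 to 124949324, minus strand) had adjusted counts of 3487 and 3402 (subjective day) against 2984 and 3024 (objective day). The samples of each condition differed by at most 0.036 on the log2 scale, and the gap between conditions was 0.17. The log2 fold change was -0.20 (interval -0.33 to -0.063, adjusted p = 0.0812), not past the threshold. Its transcript has a GC content of 56.0%, above the median of the genes tested. Once the GC trend was removed, Egln1 had the smallest adjusted p of the 10 genes, with a log2 fold change of -0.30 (interval -0.44 to -0.17, adjusted p = 0.0622). Egln3 (ENSMUSG00000035105, chromosome 12 from 54178981 to 54203860, minus strand), the hydroxylase gene most strongly induced by hypoxia in many cells, was far weaker. It had adjusted counts of 259 and 289 (subjective day) against 231 and 229 (objective day), and the conditions did not overlap. Egln3 had a log2 fold change of -0.25 (interval -0.52 to 0.021, adjusted p = 0.229), and -0.30 with the GC trend removed (adjusted p = 0.306). The ratio of Egln1 to Egln3 was 13.5 and 11.8 (subjective day) against 12.9 and 13.2 (objective day), with overlapping values. Egln2, the third family member, was named for its role after its values were seen, with 2028 and 1751 (subjective day) against 1966 and 1992 (objective day) (log2 fold change 0.071, adjusted p = 0.633).

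Of the secreted vascular factors among the 10, Vegfa rose and Adm did not pass the threshold. Vegfa (ENSMUSG00000023951, chromosome 17 from 46016993 to 46032369, minus strand) is expressed in the eye by RPE and Müller glia, among other cells. It had adjusted counts of 4934 and 4777 (subjective day) against 5810 and 5798 (objective day). The 2 objective day samples were nearly equal, and the gap to the higher subjective day sample was 0.23 on the log2 scale. Vegfa had a log2 fold change of 0.26 (interval 0.12 to 0.39, adjusted p = 0.0375). Leaving out a sample kept it between 0.23 and 0.28, but the adjusted p was 0.246 without objective day replicate 1, 0.220 without objective day replicate 2 and 0.0822 without subjective day replicate 2. GC correction left Vegfa at 0.21, with an adjusted p of 0.166. Adm (ENSMUSG00000030790, chromosome 7 from 110627661 to 110629820, plus strand) encodes adrenomedullin, a vasodilator peptide. It was close to the filter, at 24.0 and 23.3 (subjective day) against 26.4 and 33.5 (objective day). The objective day samples differed from each other by 0.33 on the log2 scale, and the interval of the fold change, -0.36 to 1.00 around 0.32 (adjusted p = 0.534), covers a fall as well as a rise. GC correction left Adm at 0.28 (adjusted p = 0.739).

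Of the metabolic targets, Pdk1 fell and Slc2a1 did not pass the threshold. Slc2a1 (ENSMUSG00000028645, chromosome 4 from 119108711 to 119137983, plus strand) encodes GLUT1, the glucose transporter through which the RPE and retina are supplied. The antisense gene Gm12868 shares 105 of its 3506 exonic bases and was listed at 14.6 to 23.7. It had adjusted counts of 10450 and 9746 (subjective day) against 11574 and 11317 (objective day), a separation of 0.12 on the log2 scale. Slc2a1 had a log2 fold change of 0.18 (interval 0.026 to 0.34, adjusted p = 0.142), and 0.092 with the GC trend removed. Pdk1 (ENSMUSG00000006494, chromosome 2 from 71873224 to 71903858, plus strand) encodes a kinase that shuts off pyruvate dehydrogenase. It had adjusted counts of 1899 and 1897 (subjective day) against 1534 and 1600 (objective day). The subjective day samples were nearly equal, and the log2 fold change was -0.28 (interval -0.42 to -0.13, adjusted p = 0.0370). The adjusted p of Pdk1 was 0.288 without objective day replicate 1, 0.152 without objective day replicate 2 and 0.0594 without subjective day replicate 2, with log2 fold changes between -0.31 and -0.25. GC correction left Pdk1 at -0.20 (adjusted p = 0.214). The Slc2a1 to Pdk1 ratio was 5.50 and 5.14 (subjective day) against 7.54 and 7.07 (objective day). This pair was chosen with earlier results known and was given no test. The GC contents of Slc2a1 (54.0%) and Pdk1 (46.4%) differ, and the ratio carries the GC trend.

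Bnip3 and Ddit4 are stress-response targets that act on mitochondria and on growth signalling. Bnip3 (ENSMUSG00000078566, chromosome 7 from 138890836 to 138909519, minus strand) had adjusted counts of 2523 and 2407 (subjective day) against 1694 and 1814 (objective day). Every objective day sample was well below every subjective day sample, with a gap of 0.41 on the log2 scale against at most 0.099 within a condition. The log2 fold change was -0.49 (interval -0.65 to -0.34, adjusted p = 0.00710). Bnip3 was the only one of the 10 genes that was called whichever sample was left out, with log2 fold changes from -0.54 to -0.44 and adjusted p values from 0.00424 to 0.0347. Its GC content of 41.6% is near that of Hif1a, and with the GC trend removed the log2 fold change was -0.18 (interval -0.35 to -0.0037, adjusted p = 0.359). The antisense gene Gm45507 shares 504 of the 2265 exonic bases of Bnip3, and the strand setting of the counting is not given in the sources used here. Ddit4 (ENSMUSG00000020108, chromosome 10 from 59949669 to 59951834, minus strand) encodes REDD1, an inhibitor of mTORC1 that also responds to glucocorticoids. It had adjusted counts of 2885 and 2544 (subjective day) against 3353 and 2993 (objective day), with replicate 1 the higher sample in both conditions. The gap between conditions, 0.053 on the log2 scale, was smaller than the difference within either condition. The log2 fold change of Ddit4 was 0.23 (interval 0.026 to 0.43, adjusted p = 0.153), or 0.11 with the GC trend removed (adjusted p = 0.596), and without subjective day replicate 1 it was 0.32 with an adjusted p of 0.0348. It was 0.14 without subjective day replicate 2 (adjusted p = 0.397) and 0.14 without objective day replicate 1 (adjusted p = 0.638).

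Ratios within a sample describe how a pair of genes changed relative to each other, and say nothing of the direction of either. The ratio of Vegfa to Bnip3 counts was 1.96 and 1.98 (subjective day) against 3.43 and 3.20 (objective day), which is 1.68 times higher in objective day. Vegfa to Pdk1 was 2.60 and 2.52 (subjective day) against 3.79 and 3.62 (objective day). These pairs were chosen after the values were seen and were given no test. The GC contents of Vegfa (50.9%), Pdk1 (46.4%) and Bnip3 (41.6%) differ, and the ratios carry the GC trend.

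Per kilobase of the longest transcript, Hif1a and Slc2a1 were the highest of the 10 genes and Egln3 and Adm the lowest. The mean adjusted count per kb over the 4 samples was 3973 for Hif1a, 3304 for Slc2a1, 2062 for Epas1, 1677 for Ddit4, 1544 for Vegfa, 1201 for Bnip3, 897 for Egln1, 334 for Pdk1, 94.6 for Egln3 and 19.3 for Adm. In subjective day Hif1a (4355 and 4316 per kb) stood clear of Slc2a1 (3206 and 2990 per kb), whereas in objective day they overlapped, at 3788 and 3434 against 3550 and 3471 per kb. Vegfa and Bnip3 overlapped in subjective day, at 1430 and 1384 against 1437 and 1371 per kb. In objective day they were apart, with Vegfa at 1684 and 1680 per kb and Bnip3 at 965 and 1033 per kb. Bnip3 was above Egln1 within each condition, and Ddit4 above Vegfa, although their ranges over all 4 samples overlap. The transcript used by these cells may be shorter than the longest annotated transcript, which would raise the level per kb.

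**Figure D4:**
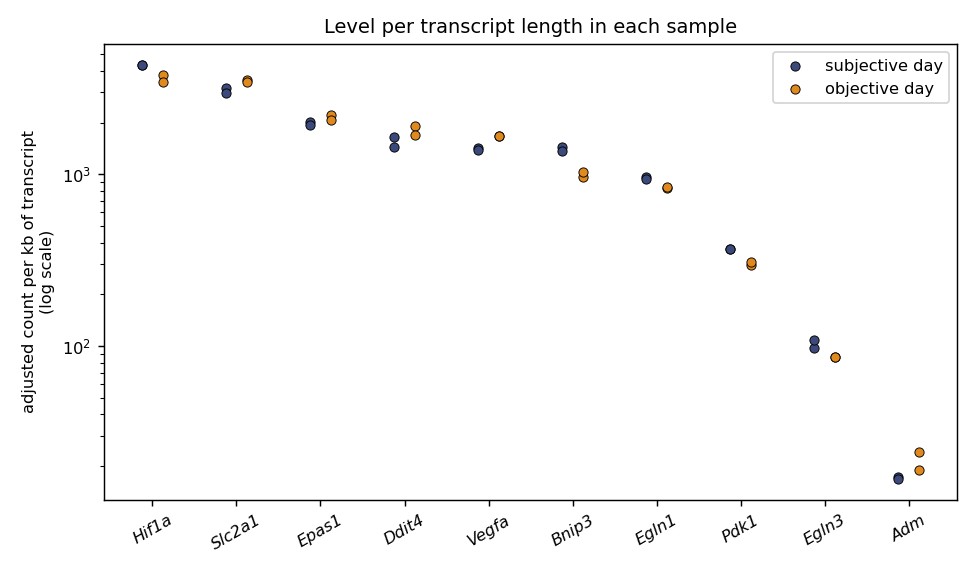
Adjusted count per kb of the longest transcript (vertical axis, log scale) for the 10 genes in each sample, ordered by their mean. Hif1a and Slc2a1 overlap in objective day only, and Vegfa and Bnip3 overlap in subjective day only.

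Other genes of the pathway were read from 8 lists. Of their 106 gene identifiers tested, among which Park2 has 2, 13 passed the threshold and all 13 were lower in objective day, a split that did not hold without subjective day replicate 1 (15 lower and 6 higher). That is 12.3% of them, beside the 7.45% of all genes called lower, and the median log2 fold change of the 106 was -0.0022. The lists were chosen with earlier results of these data known, and these shares were given no test. The GC contents of all 13 lay under the median of the genes tested, between 37.8% and 49.5%. After GC correction 2 were called, Ak4 and Bcl2, and 22 of the 106 had an unadjusted p under 0.05, beside the 13.5% of all genes. A Park2 row among the 106 has no known GC content and was left out of that fit. In the deposited values the share of all genes with an unadjusted p under 0.05 was 25.4%, the background for the list counts at an unadjusted p, while 8.51% (7.45% lower) is that for the genes called.

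**Figure D5:**
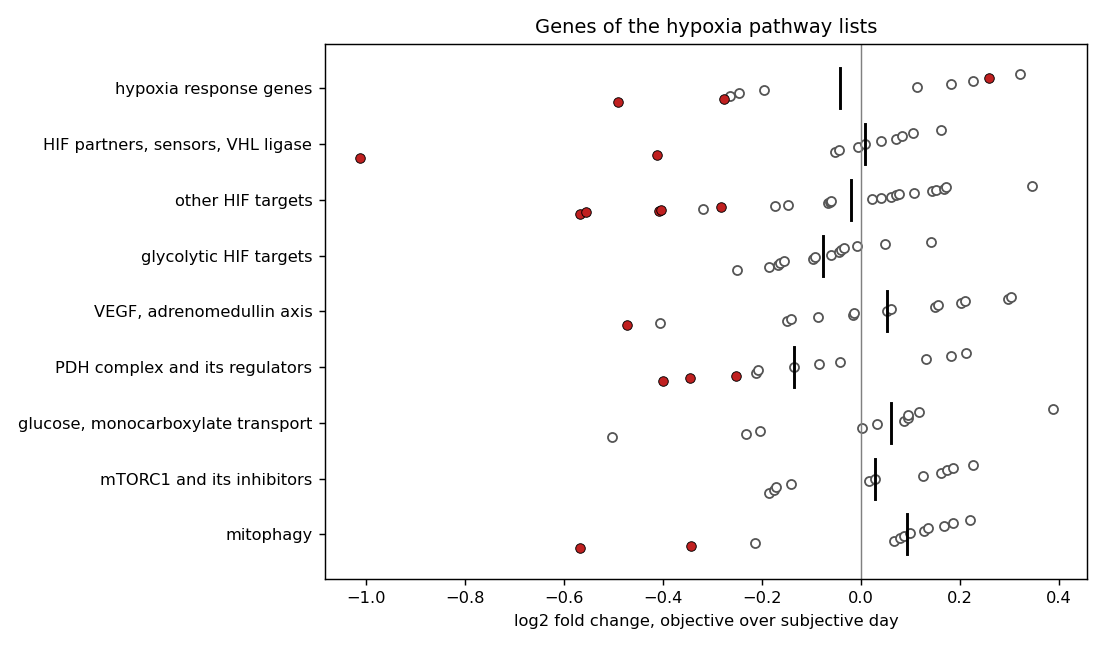
Log2 fold change of objective over subjective day (horizontal axis) for the genes tested of the 10 hypoxia genes and of 8 pathway lists. Each point is a gene, red where the adjusted p was under 0.05, and black bars are medians; Vegfa is the only red point above 0.

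Of the 11 genes for HIF partners, oxygen sensors and the VHL ligase, 2 fell and 9 did not pass the threshold. Both that fell belong to the ligase that carries VHL. Tceb1, its elongin C adaptor, had 828 and 830 (subjective day) against 436 and 386 (objective day) (log2 fold change -1.01, adjusted p = 0.00554). Cul2, its cullin scaffold, had a log2 fold change of -0.41 (adjusted p = 0.0149). After GC correction these were -0.46 (adjusted p = 0.0798) and -0.029 (adjusted p = 0.916). The most abundant others were Hif1an, the asparagine hydroxylase that inhibits HIF (log2 fold change 0.040, adjusted p = 0.706), and Rbx1, the ligase's RING subunit (-0.054, adjusted p = 0.669). Vhl itself and Arnt, the HIF partner, were named for their roles after their values were seen, with log2 fold changes of -0.045 (adjusted p = 0.760) and -0.0069 (adjusted p = 0.960).

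Of 24 other classical HIF targets, 22 were tested, 5 fell and none rose. The 2 not tested were Car9, at 10.4 or less, and Epo, at 3.99 or less. The 5 were Tfrc, the transferrin receptor (log2 fold change -0.56, adjusted p = 0.00559), Ero1l, a disulphide oxidase of the endoplasmic reticulum (-0.57, adjusted p = 0.00617), Rora, a nuclear receptor of the clock (-0.41, adjusted p = 0.00974), Ak4, a mitochondrial adenylate kinase (-0.41, adjusted p = 0.0183), and Bnip3l, the close relative of Bnip3 (-0.28, adjusted p = 0.0302), which is named beyond the rule of 4 so that all 5 are given. With the GC trend removed Tfrc was at -0.12, Ero1l at -0.25, Rora at -0.047 and Bnip3l at 0.015, none of them called, while Ak4 was at -0.41 (adjusted p = 0.0480). Ndrg1 and Cited2, the most abundant of those not called, had log2 fold changes of 0.077 and -0.063 and did not pass the threshold (adjusted p = 0.555 and 0.699). The 14 glycolytic HIF targets, in which the retina is rich, had 0 calls by limma and 2 with an unadjusted p under 0.05. Of the 14, 12 lay below 0, their median was -0.078, and it was -0.15 with the GC trend removed. Aldoa and Hk1, the highest of them, had log2 fold changes of -0.061 (adjusted p = 0.763) and 0.14 (adjusted p = 0.388).

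Of 15 ligands and receptors of the VEGF, angiopoietin and adrenomedullin systems, 1 fell and 14 did not pass the threshold. Calcrl, which forms the adrenomedullin receptor, had 320 and 346 (subjective day) against 239 and 239 (objective day) (log2 fold change -0.47, adjusted p = 0.0378), and 0.12 with the GC trend removed (adjusted p = 0.691). The main VEGF receptor gene Kdr had a log2 fold change of -0.14 (adjusted p = 0.204) and the decoy receptor gene Flt1 of -0.014 (adjusted p = 0.910). Of 11 genes of the pyruvate dehydrogenase complex and its regulators other than Pdk1, 3 fell: Dld (-0.40, adjusted p = 0.0140) and Pdhb (-0.25, adjusted p = 0.0474), which are subunits of the complex, and Pdp1 (-0.35, adjusted p = 0.0303), a phosphatase that activates it. After GC correction they were at -0.021, -0.17 and 0.14. Pdk2 and Pdha1 did not pass (0.21, adjusted p = 0.123, and -0.21, adjusted p = 0.110). Pdk4, named after its values were seen, is listed at 154 and 562 (subjective day) against 556 and 200 (objective day), so its samples differ more within a condition than between conditions.

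Of 12 tested rows for mitophagy genes, in which Park2 has 2 rows, Bcl2, a binding partner of Bnip3 (-0.57, adjusted p = 0.00786), and Fundc1, another hypoxia-linked mitophagy receptor (-0.34, adjusted p = 0.0361), fell. After GC correction Bcl2 was at -0.48 (adjusted p = 0.0472) and Fundc1 at 0.17. Pink1 and Gabarapl1 had log2 fold changes of 0.098 and 0.087 (adjusted p = 0.468 and 0.581). The 11 genes of mTORC1 and its inhibitors other than Ddit4 had 0 calls by limma and 4 with an unadjusted p under 0.05. Mtor itself came nearest, at 0.23 (adjusted p = 0.0596), and Rptor was at 0.19 (adjusted p = 0.137). The 10 other genes of glucose and monocarboxylate transport also had 0 calls by limma and 2 with an unadjusted p under 0.05. Of these, Bsg was at 0.094 (adjusted p = 0.658) and Slc16a1 at 0.031 (adjusted p = 0.802), both the most abundant and not called.

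Marker lists show what else differed between these pooled tissues, in which fewer cells of a type and less RNA per cell cannot be told apart. Gnat1, the rod transducin subunit, was between 584720 and 761670, and Rpe65, which marks RPE, between 5121 and 8708, so both tissues were present. Summed over 8 endothelial markers, the adjusted count was 4915 and 4822 (objective day) against 4166 and 3725 (subjective day), and 2 of the 8 were called, both higher (Egfl7 and Cldn5). Summed over 5 red blood cell markers it was 4301 and 4574 against 3054 and 3161, with 3 of 5 called higher. Of 8 Müller glia markers, 2 were called lower (Aqp4 and Slc1a3), with sums of 140446 and 132956 (objective day) against 146912 and 137050 (subjective day). The 7 photoreceptor markers had 0 calls by limma (2 with an unadjusted p under 0.05) and sums of 1224025 and 1100938 against 1057924 and 937873. Gnat1, at a mean of 666845, is the largest part of the photoreceptor sums. Glul, at a mean of 72286, is the largest part of the Müller glia sums. Of 7 RPE markers tested, Rpe65 was called lower, with list sums of 88340 and 79795 against 89762 and 74685. The 5 ocular surface markers tested were all called lower, with list sums of 3016 and 5540 against 10599 and 11032. Lens markers had 0 calls, and their sums separated replicate numbers, not conditions (57564 and 14491 against 51788 and 6081 for replicates 1 and 2). Of 10 immediate early genes 3 were called higher, Egr1 among them at a log2 fold change of 2.25, and of 8 glucocorticoid-responsive genes 2 were called higher, Mt1 and Mt2. Once the GC trend was removed, Egfl7, Cldn5, Aqp4, Slc1a3, Rpe65, Mt1 and Mt2 were no longer called (adjusted p from 0.0785 to 0.559), while 1 red blood cell marker, 2 immediate early genes (Egr1 and Fos) and 4 ocular surface markers were. For Rpe65, the study also reported a lower level in objective day by qRT-PCR, in separate samples of this strain. No marker was at 0 in all 4 samples, and the part of these differences in the results on hypoxia genes was not tested.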

How the data were processed

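Polyadenylated RNA from 4 eye samples was sequenced on a single lane, and total RNA integrity had been checked by the authors. Per the methods and the submitters' processing notes, reads were demultiplexed (CASAVA 1.8), aligned to the mouse Ensembl release 72 genome with TopHat2 2.0.9 and Bowtie2 2.1.0, counted per gene with HTSeq and compared with edgeR. What the authors deposited is a signal, that is, fractional gene counts made comparable between libraries of unequal size. The library totals lay between 33278417 and 35236783, which reflects that adjustment and not depth. Low values lay near, but not on, multiples of a step, so whole reads were not recovered and no count test was run. The adjustment, the low-count filter and the strand setting are not given in the sources used here. Other columns hold the authors' own fold changes and p-values and were not used. Every column of sample values was used.

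Genes were compared on log2(value + 1) where they stood at 10 or above in 2 or more samples, with limma 3.58.1 (R 4.3.3), with a variance prior that follows mean expression and Benjamini-Hochberg adjustment over all genes tested, called at 0.05. Confidence intervals are limma's at 95%. Fold changes on this scale understate those of low genes. GC content and length are those of the longest transcript in GENCODE M21 (GRCm38), known for 98.6% of genes tested, and coordinates come from that release. The GC trend was removed per sample by local regression with a span of 0.3. The script was tested on simulated data. The members and lists were chosen with earlier results of these data known. A photoreceptor marker of the planned list is not reported here. In each list, up to 4 called genes with the smallest adjusted p and the 2 most abundant others were named, and genes named beyond that rule are marked. Alternatives covered pseudocount, filter, scaling, replicate block, GC trend, variance prior, threshold and each sample left out. Figures were drawn with matplotlib 3.10.9.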

Additional observations from a re-analysis of the deposited data

How the results depend on the processing

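Over 14 alternatives, 117 of 139 values for the 10 genes kept their direction and their side of the threshold, 13 lost a call, 7 gained one and 2 changed direction. Both changes of direction were those of Hif1a, at 0.067 on the log2 scale with the GC trend removed, with or without the replicate block. Adm gave no value when a mean of at least 50 was required. Of the 10 genes, 3 were called under both other pseudocounts, both other filters and median ratio scaling, and 4 with equal totals without mitochondrial genes.

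With the GC trend removed, limma called 211 genes, 0 hypoxia genes and 2 genes of the pathway lists. With a constant variance prior it called 0, 0 and 0, where 3586 genes (20.2%), 5 hypoxia genes and 21 pathway genes had an unadjusted p under 0.05. At a threshold of 0.1 the counts were 2595, 5 and 20 (17 lower and 3 higher). With each sample left out in turn they ran from 664 to 2557 genes, from 1 to 4 hypoxia genes and from 4 to 21 pathway genes. The lowest count of genes was without objective day replicate 2 (664) and the highest without subjective day replicate 1 (2557), and 1 hypoxia gene was called without each of objective day replicates 1 and 2 and subjective day replicate 2. A condition with a lone sample is then assumed to vary like the other.

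The conditions share replicate numbers 1 and 2, and no source says what a number marks. Same-numbered samples deviated together (correlation 0.319 across genes). With the replicate block limma called 3613 genes (20.3%), 7 hypoxia genes (Bnip3, Pdk1, Vegfa, Hif1a, Egln1, Ddit4 and Slc2a1) and 30 pathway genes (20 lower and 10 higher). The adjusted p with the block was 0.00991 for Hif1a, 0.0145 for Ddit4, 0.0245 for Egln1 and 0.0276 for Slc2a1. With the replicate block and the GC trend removed it called 1626 genes (9.27%, 712 lower and 914 higher), 15 pathway genes (11 lower and 4 higher) and 3 hypoxia genes, namely Egln1, Vegfa and Pdk1 (adjusted p = 0.00151, 0.00951 and 0.0385). The causes of these changes were not tested. Depth is not given by the adjusted values, and for Adm, at 23.3 to 33.5, the interval is the limit.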
